A study of Mus musculus with 4 samples.

Results

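The 7 chemokine receptor genes Ccr2, Ccr4, Ccr6, Cxcr3, Cxcr4, Cxcr5 and Cxcr6 were followed across subsets of stimulated splenic CD4 T cells. They were chosen by symbol from the 32285 genes of the deposited count files, and all 7 were found. Cells came from spleens of C57BL6/J mice and were sorted for CD3 and CD4. They were then cultured for 6 hours with beads carrying antibodies to CD3 and CD28 and profiled by droplet sequencing of RNA 3′ ends, in which a unique molecular identifier (UMI) marks each captured transcript. Of the 4 libraries, all stimulated, one of each sex was labelled Irf5-/- and one of each sex WT. The labels give neither the age of the mice nor the number pooled into a library. Values listed by library are always in the order female Irf5-/-, female WT, male Irf5-/- and male WT, each as labelled.

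Irf5, the targeted gene, went against the labels. It stood at 8.24, 0.809, 8.66 and 0.921 CPM (UMIs per 1000000 UMIs of the library or class), so both libraries labelled Irf5-/- were higher, with a log2 fold change of 3.18 (edgeR adjusted p = 3.93e-09). Reads from RNA 3′ ends can come from outside a deleted part, and the labels do not say which part was deleted, so this level does not check the deletion. Exchanged labels would give the same picture, and these cases cannot be told apart here. The libraries are therefore named by their labels throughout, and every direction by genotype holds for the labels as given and would turn if they were exchanged.

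The files held 28841161 to 55850754 UMIs per library, of which 8.62% to 36.2% lay in droplets with under 200 UMIs, the share being highest in the female library labelled WT. Of the 19100 barcodes with at least 2000 UMIs, at least 500 genes and at most 10% mitochondrial UMIs, 17695 held a CD3 transcript and stayed under the limits set on markers of other lineages (3 UMIs of B, myeloid or NK and gamma-delta markers, 2 UMIs of Cd8b1, 2% erythroid UMIs). These CD4 T-like cells numbered 5526, 1673, 6133 and 4363. Cd4 stood at 46.5 to 54.7 CPM in them and the CD3 genes together at 623 to 782 CPM. Summed markers of B cells stood at 0.449 to 0.607 CPM, of myeloid cells at 0 to 0.227 CPM, of NK or gamma-delta cells at 1.46 to 3.50 CPM, of CD8 cells at 5.19 to 6.10 CPM and of erythroid cells at 0.454 to 0.899 CPM in all libraries but the female one labelled WT, where they reached 17.1 CPM. Any 2 libraries shared 2 to 14 barcodes.

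Chemokine receptors are membrane receptors coupled to Gi proteins that steer leukocytes along gradients of chemokines. In CD4 T cells they mark past experience and helper type. Cxcr3, the receptor for Cxcl9, Cxcl10 and Cxcl11, is known from type 1 cells, Ccr4, which binds Ccl17 and Ccl22, from type 2, skin-homing and regulatory cells, and Ccr6, the receptor for Ccl20, from type 17 and regulatory cells. Ccr2 binds Ccl2 and guides cells to inflamed tissue. Cxcr6 binds Cxcl16 and is known for retaining innate-like and resident T cells in tissue, Cxcr5 binds Cxcl13 and leads cells into B cell follicles, and Cxcr4 binds Cxcl12 and is carried by most naive T cells.

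CD4 T-like cells were divided into 5 exclusive classes. The Zbtb16 class (at least 1 UMI of Zbtb16, the factor PLZF of NKT and other innate-like T cells) held 72, 18, 100 and 29 cells. The Foxp3 class (at least 1 UMI of Foxp3, the factor of regulatory T cells) held 259, 39, 333 and 151 cells, and cells with both transcripts were left out. The memory-like class (at least 3 UMIs of S100a4 and S100a6 together) held 19, 4, 12 and 13 cells, which makes it the least well measured. The remaining naive-derived cells were called activated where 10 early activation genes reached 10 of 10000 UMIs (3718, 1168, 3994 and 2946 cells) and resting below that (1457, 443, 1690 and 1223 cells). Of the marker genes listed as a check, 5 of 5 for Foxp3, 4 of 4 for Zbtb16, 5 of 6 for memory-like and 4 of 5 for resting cells were highest in their own class. For activated cells it was 4 of 6, but all 6 are among the 10 activation genes that define the class, so this is no check. The cuts are ranges and not types: 95 cells had exactly 1 Zbtb16 UMI and 131 had more, 266 had exactly 1 Foxp3 UMI and 523 had more, and 36 cells had an S100 sum of 2 against 80 with 3 or more.

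The 250 bases before the transcription start are shown for Cxcr6, Ccr4 and Cxcr4, because these 3 receptors carry the contrasts between innate-like, activated and resting cells described further on. Sequences are from a set of RefSeq promoters on GRCm38.p6. The set used held 6 of the 7 members and had no entry for Cxcr5. Capitals mark GGAAA, the core that NFAT factors bind, and TGANTCA, the AP-1 element, on either strand. NFAT and AP-1 are factors that signals from the T cell receptor switch on.
Cxcr6 (chr9:123806227-123806476, plus strand): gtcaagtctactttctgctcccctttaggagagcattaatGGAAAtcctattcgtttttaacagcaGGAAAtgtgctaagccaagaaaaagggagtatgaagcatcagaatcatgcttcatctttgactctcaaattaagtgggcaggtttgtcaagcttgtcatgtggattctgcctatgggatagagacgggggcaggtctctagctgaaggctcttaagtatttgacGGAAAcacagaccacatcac
Ccr4 (chr9:114496545-114496794, minus strand): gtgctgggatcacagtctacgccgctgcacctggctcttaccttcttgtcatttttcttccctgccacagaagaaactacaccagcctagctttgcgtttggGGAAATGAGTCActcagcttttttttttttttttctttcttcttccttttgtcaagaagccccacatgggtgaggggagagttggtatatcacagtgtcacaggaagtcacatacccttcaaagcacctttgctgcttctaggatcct
Cxcr4 (chr1:128592300-128592549, minus strand): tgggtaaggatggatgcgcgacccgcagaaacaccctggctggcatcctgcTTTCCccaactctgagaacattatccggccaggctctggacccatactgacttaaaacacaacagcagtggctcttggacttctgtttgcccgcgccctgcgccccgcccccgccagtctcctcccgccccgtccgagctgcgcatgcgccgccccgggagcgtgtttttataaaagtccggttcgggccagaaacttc
GGAAA occurred 3 times before Cxcr6 and once each before Ccr4 and Cxcr4. It is common, since 55.6% of 32851 promoter windows of this length held it on either strand. TGANTCA occurred before Ccr4 and not before the others shown, and 6.75% of windows held it. In the Ccr4 window both elements adjoin without overlap as GGAAATGANTCA, an arrangement looked for after the sequence had been seen, which 0.0396% of windows held. The cores CACCC of KLF factors, GATAA of GATA factors and GGTGTG of T-box factors were searched as well. CACCC occurred before Ccr4 and Cxcr4 (52.0% of windows), GATAA before Ccr2, Cxcr4 and 1 of 2 starts of Ccr6 (22.6%), and GGTGTG before none of the 6 members in the table (16.3%). In GENCODE M21 the Cxcr6 window lies within an intron of Fyco1 on the opposite strand, the Ccr4 window lies within the Ccr4 gene with 18 bases in an exon, and the Cxcr4 window overlaps no gene.

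Cxcr6 and Ccr2, in the Zbtb16 class, had the largest rises over activated cells of any tested member in any class. Both lie on the plus strand of chromosome 9 in GRCm38, Cxcr6 at 123806475 to 123811760 and Ccr2 at 124101950 to 124113557, 290.19 kb apart. Cxcr6 stood at 710, 1015, 770 and 672 CPM in the Zbtb16 class, 792 ± 154 (SD, n = 4 libraries). In activated cells it stood at 11.5, 6.22, 6.14 and 3.59 CPM, so the classes did not overlap in any library. The log2 fold change was 6.65 ± 0.16 (SE; edgeR adjusted p = 1.01e-28), with Zbtb16 cells higher in 4 of 4 libraries. Ccr2 stood at 281.5, 303, 245 and 395 CPM in the Zbtb16 class, 306 ± 63.6 (SD, n = 4). In activated cells it was at 3.77, 4.15, 1.06 and 0.589 CPM, levels that rest on few cells. Of the 48 activated Ccr2 UMIs of the female library labelled WT, 34 lay in 1 cell, and without cells of 3 or more Ccr2 UMIs the levels were 0.999, 0.952, 0.696 and 0.177 CPM. The Zbtb16 and activated groups did not overlap, and the log2 fold change was 7.09 ± 0.27 (SE; edgeR adjusted p = 4.10e-22), again higher in 4 of 4 libraries. Thinning every cell to 2000 UMIs gave smaller values, 5.59 for Cxcr6 and 5.51 for Ccr2 on the log2 scale, and without the male library labelled WT Ccr2 gave 6.51.

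**Figure D1:**
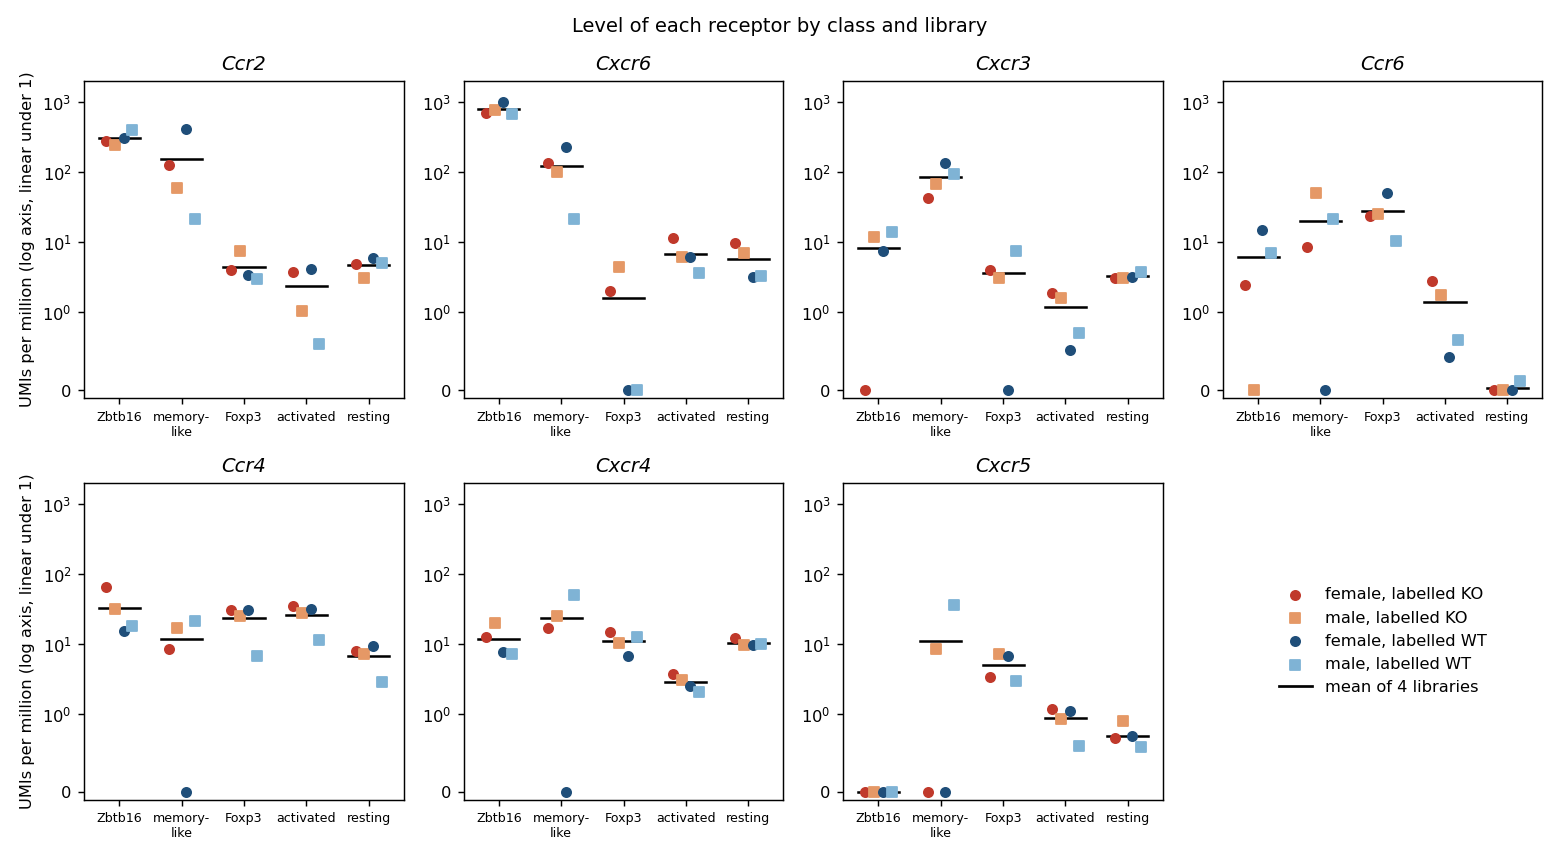
Level of each receptor (CPM, log axis that is linear under 1) in the 5 classes, with 1 point per library and a line at the mean of 4 libraries. Cxcr6 and Ccr2 stand apart in Zbtb16 cells (792 and 306 CPM on average), Ccr6 is highest on average in Foxp3 cells (27.6 CPM), and Ccr4 is higher in activated than in resting cells in every library.

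Of the 6 members that could be tested between classes, 4 rose in the Zbtb16 class, where 22.0% of 8989 genes tested were called higher and 20.9% lower (42.8% in all). The other 2 calls were of small counts. Cxcr3 rose by 2.60 ± 0.67 on the log2 scale (SE; edgeR adjusted p = 0.00166) from 0, 7.57, 11.8 and 14.2 CPM, which is 14 UMIs in all. Cxcr4 rose by 2.14 ± 0.41 (SE; edgeR adjusted p = 5.30e-05) at 12.5, 7.57, 19.7 and 7.11 CPM. Neither call held without the male library labelled Irf5-/- (edgeR adjusted p = 0.109 for Cxcr3 and 0.0649 for Cxcr4), and Cxcr3 was not called when Zbtb16 cells over the activation cut were compared with activated cells (log2 1.08, edgeR adjusted p = 0.434). Ccr4 (log2 0.26 ± 0.22 SE, edgeR adjusted p = 0.370) and Ccr6 (0.85 ± 1.04, edgeR adjusted p = 0.547) did not pass the test. Median expression of the 10 activation genes was 19.4 to 23.8 per 10000 UMIs in Zbtb16 cells and 30.1 to 34.7 in activated cells, and its part in these differences was tested only by the comparison above the cut.

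The Zbtb16 class was small and held much of the RNA of both genes. With 0.632% to 1.69% of all UMIs of CD4 T-like cells, it contained 45.0%, 60.1%, 65.7% and 52.8% of the Cxcr6 UMIs. It contained 45.4%, 34.8%, 66.5% and 61.0% of the Ccr2 UMIs. After thinning to 2000 UMIs a cell, 62.1% ± 10.5 (SD, n = 4) of Zbtb16 cells had a Cxcr6 UMI and 36.7% ± 7.22 a Ccr2 UMI (82.9% and 54.0% unthinned). In the Foxp3 class, where 2 of 4 libraries had no Cxcr6 UMI at all, the thinned Cxcr6 share was 0.225%. Cxcr6 stood at 597, 855 and 863 CPM in cells with 1, 2 and 3 or more Zbtb16 UMIs, so even cells at the cut carried it.

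Both receptors were often found in the same cells. Of 152 thinned CD4 T-like cells with a Ccr2 UMI, 90 (59.2%) also had a Cxcr6 UMI, against 228 of 17543 (1.30%) without Ccr2. The share was 70%, 43.5%, 54.2% and 57.1% by library. Within the Zbtb16 class, Ccr2 was found in 56 of 136 cells with Cxcr6 (41.2%) and in 17 of 83 without (20.5%). Partner genes were chosen after their values were seen: Rora, a nuclear receptor of innate-like and type 17 cells, was found in 52.0% and Il4, the type 2 cytokine, in 21.7% of Ccr2-positive cells. These shares pool cells of 4 libraries and are descriptions with no test.

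A further set of Cxcr6-high cells lay outside the Zbtb16 class. Of 225 CD4 T-like cells with 3 or more Cxcr6 UMIs, 145 were in the Zbtb16 class, 56 in the activated and 14 in the resting class. The 70 activated or resting ones had Ccr2 at 330.0 CPM (95% exact Poisson interval 280 to 386), compared with 0.784 CPM in 16188 such cells without a Cxcr6 UMI. They also had Rora at 457 CPM, Il4 at 218 CPM, Icos, a costimulatory receptor, at 679 CPM and Gata3, the type 2 factor, at 142 CPM. In the cells without Cxcr6 these 4 genes stood at 14.2, 0.881, 249 and 41.4 CPM, and in the Zbtb16 class at 718, 583, 804 and 118 CPM. For each of these 4 genes, the 70 cells differed from the Zbtb16 class by a smaller factor than from cells without Cxcr6. Tbx21, the type 1 factor T-bet, did not follow, at 27.5 CPM in the 70 cells, 15.2 CPM in the Zbtb16 class and 24.7 CPM in cells without Cxcr6, and Ccr4 stood between at 27.5, 36.1 and 20.5 CPM. Without cells of 3 or more Cxcr6 UMIs, activated cells kept 4.28, 4.85, 3.31 and 2.65 CPM of Cxcr6.

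**Figure D2:**
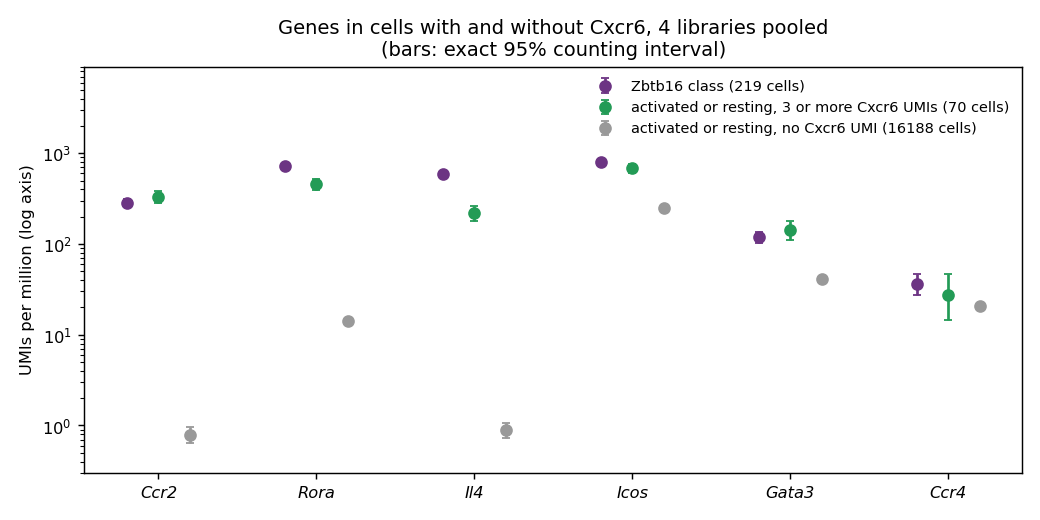
Levels of selected genes (CPM, log axis) in activated or resting cells with 3 or more Cxcr6 UMIs, in those without a Cxcr6 UMI and in the Zbtb16 class, pooled over libraries, with exact 95% counting intervals as bars. The 70 Cxcr6-high cells carry Ccr2 at 330.0 CPM against 0.784 CPM in cells without Cxcr6.

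Free RNA held both genes. In droplets with under 200 UMIs, Cxcr6 stood at 82.3, 74.1, 58.7 and 22.3 CPM and Ccr2 at 35.1, 30.8, 19.95 and 11.6 CPM, above their levels in activated cells. The ratio of erythroid markers in CD4 T-like cells to those in free RNA was 0.956%, 2.53%, 2.03% and 2.35%. The same ratio for B cell markers, from 10 to 30 UMIs in free RNA, was 5.00%, 24.3%, 16.4% and 36.8%, and for myeloid markers, from 1 to 32 UMIs, it was 0% to 79.5%. The share of free RNA in the cells is thus not settled by these markers, and its part in the levels was not tested. In the Zbtb16 class Cxcr6 and Ccr2 were above their free RNA level in every library, and in activated cells both were below it in every library. Cxcr6 also lies wholly within Fyco1, a gene of the opposite strand whose product transports autophagosomes, and the use of strand in counting is not given in the sources used here. Fyco1 stood at 42.4, 30.3, 36.7 and 49.8 CPM in the Zbtb16 class and at 17.4, 14.3, 18.7 and 15.6 CPM in activated cells. Cells kept out as NK or gamma-delta-like (120 cells) also carried Cxcr6 at 165 CPM and Ccr2 at 99.99 CPM.

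Other genes of the pathway moved in the Zbtb16 class as well. Among other chemokine receptors, Ccrl2, a non-signalling chemerin receptor, rose by 4.12 and Ccr9, the gut-homing receptor, by 4.07 on the log2 scale, while Ccr7, the lymph node homing receptor, fell by 2.16. Scaled levels (TMM) of Ccr9 in the class were 7.36, 7.50, 26.4 and 0 CPM, highest in the male library labelled Irf5-/-. Of 24 genes of receptor signalling and desensitisation, 16 rose and 3 fell, with a median log2 fold change of 1.26 (-0.01 over all genes, of which 22.0% were called higher and 20.9% lower). Examples are Arrb1, a beta-arrestin, at 3.41, and Rgs1, which shortens Gi signals, at 3.37. Ccrl2, Ccr9 and Arrb1 were also higher in resting than in activated cells, as given further on, so their rise is not particular to the Zbtb16 class. Of 11 helper lineage factors tested, 7 rose and 2 fell, Rora (5.22) and Maf (4.16) among the former and Bcl6, the follicular helper factor, at -2.15 among the latter. Cxcl10, the one ligand gene tested, fell by 1.67. All the genes named here passed the edgeR test at an adjusted p under 0.05.

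**Figure D3:**
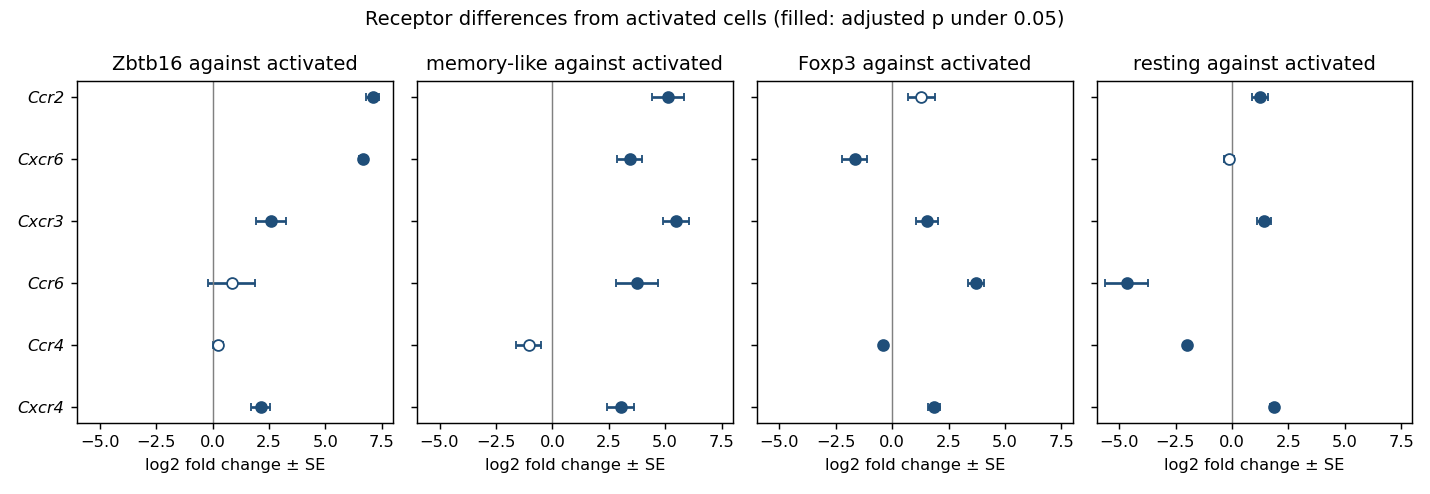
Difference of each tested receptor between a class and activated cells (log2 fold change, points, filled at an adjusted p under 0.05) with its standard error (bars), for 4 classes. Cxcr6 and Ccr2 lie near 7 in Zbtb16 cells, Cxcr3 and Ccr2 above 5 in memory-like cells, Ccr6 at 3.71 in Foxp3 cells and Ccr4 at -1.98 in resting cells.

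Memory-like cells had the highest Cxcr3 level of the 5 classes in every library. Cxcr3 (chromosome X, 101731535 to 101734269, minus strand) stood at 42.4, 137, 67.4 and 93.5 CPM there, 85.1 ± 40.5 (SD, n = 4), from 29 UMIs. Activated cells had 1.86, 0.518, 1.60 and 0.736 CPM, with no overlap, and the log2 fold change was 5.48 ± 0.57 (SE; edgeR adjusted p = 1.29e-09). Of 6 members tested, 5 rose in memory-like cells, where 15.7% of genes were called higher and 18.4% lower (34.1% in all). Ccr2 rose by 5.13 ± 0.70 (SE; edgeR adjusted p = 3.36e-07), though its level ranged widely, at 127, 411, 59.0 and 21.6 CPM, and its range overlapped that of the Zbtb16 class. Its 34 UMIs lay in 9 of 48 cells, with 12 of 15 in 1 cell of the female library labelled Irf5-/-. Cxcr6 rose by 3.43 ± 0.55 (edgeR adjusted p = 5.38e-06) at 136, 229, 101 and 21.6 CPM, below the Zbtb16 class in every library. Of its 16, 5, 12 and 3 UMIs there, 10, 4, 9 and 2 lay in 1 cell of each library. Ccr6 rose by 3.75 ± 0.95 (edgeR adjusted p = 0.00196) and Cxcr4 by 3.03 ± 0.60 (edgeR adjusted p = 0.000111), from 10 and 12 UMIs. Ccr4 did not pass the test (log2 -1.05 ± 0.55 SE, edgeR adjusted p = 0.140).

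The memory-like cells were less activated, with a median of 2.40 to 4.82 activation transcripts per 10000 UMIs, and this moved with their receptors. The 30 cells under the activation cut held 34 Ccr2 UMIs and 34 Cxcr6 UMIs, while the 18 cells over it held 0 and 2. When these 18 cells were compared with activated cells, Cxcr3 stayed called (log2 4.02, edgeR adjusted p = 0.00551), Cxcr6 did not (0.10, edgeR adjusted p = 0.976) and Ccr2 had no UMI. The class is thin in other ways. At an S100 sum of 5 or more Cxcr4 gave 0.057 on the log2 scale (edgeR adjusted p = 0.986) and Ccr6 2.64 (edgeR adjusted p = 0.218). Ccr6 was not called without the male library labelled Irf5-/- (log2 3.09, edgeR adjusted p = 0.0918), and it gave 4.61 without the female library labelled Irf5-/-. Cxcr4 was not called without the male library labelled WT (log2 2.11, edgeR adjusted p = 0.0544), without which Ccr4 was called lower (-1.87).

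Lower sums of the S100 transcripts already went with higher receptor levels. In naive-derived and memory-like cells with an S100 sum of 0, 1, 2, 3 to 4 and 5 or more, Cxcr3 stood at 1.37, 37.8, 51.2, 50.8 and 87.5 CPM. Ccr2 stood at 2.15, 28.6, 57.6, 19.1 and 129 CPM over the same bins, and Cxcr6 at 6.00, 55.0, 57.6, 12.7 and 142 CPM. Cxcr4 did not follow the sum, at 4.19, 24.1, 12.8, 69.9 and 4.16 CPM, and 11 of its 12 UMIs in memory-like cells came from the 20 cells with a sum of 3 to 4. Cells just below the memory-like cut were thus not lower in Ccr2 or Cxcr6 than those just above it.

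Among other receptors in memory-like cells, Ccr7 fell by 1.91 on the log2 scale. Over all genes tested here 15.7% were called higher and 18.4% lower (34.1% in all). Of 24 signalling genes 12 rose and 1 fell, led by Gng2, a G protein gamma subunit, at 4.40, Arrb1 at 3.81 and Rac2, a GTPase of cell movement, at 3.25. Of 11 lineage factors 5 rose and 1 fell, Maf (5.22), Ikzf2, the factor Helios of regulatory cells, (3.63) and Rora (3.56) leading, while Tbx21 fell by 1.88. Cxcl10, the one ligand tested between classes, did not pass the test here or in Foxp3 cells.

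Ccr6 rose in Foxp3 cells, as it did in memory-like cells, which were above Foxp3 cells in both male libraries. Ccr6 (chromosome 17, 8236043 to 8257141, plus strand) stood at 23.5, 51.2, 25.4 and 10.4 CPM in the Foxp3 class, 27.6 ± 17.1 (SD, n = 4). In activated cells it stood at 2.82, 0.432, 1.75 and 0.647 CPM, so the classes did not overlap. The log2 fold change was 3.71 ± 0.35 (SE; edgeR adjusted p = 2.42e-11), higher in 4 of 4 libraries. After thinning, 3.36% ± 3.02 (SD, n = 4) of Foxp3 cells had a Ccr6 UMI (8.60% unthinned), so most Foxp3 cells had none at this depth. Pooled over libraries, Ccr6 stood at 3.78, 10.1 and 38.9 CPM in cells with 1, 2 and 3 or more Foxp3 UMIs. Cells with 3 or more were highest in all libraries but the male one labelled WT (6.18, 21.7 and 10.4 CPM), and the male library labelled Irf5-/- was the one in which all 3 steps followed the pooled order. Also pooled over libraries, Foxp3 cells with no S100a4 or S100a6 UMI had 14.4 CPM of Ccr6. At sums of 1, 2, 3 to 4 and 5 or more it stood at 88.6, 61.7, 126 and 105 CPM. These last 4 bins held only 12 to 25 cells each over all libraries.

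Of 6 members tested, 3 rose and 2 fell in Foxp3 cells, where 29.6% of genes were called higher and 27.4% lower (57.0% in all). Cxcr4 rose by 1.84 ± 0.26 on the log2 scale (SE; edgeR adjusted p = 2.49e-07) at 14.8, 6.83, 10.2 and 12.7 CPM. Cxcr3 rose by 1.54 ± 0.50 (edgeR adjusted p = 0.00873), though 1 library had no Cxcr3 UMI. Cxcr6 fell by 1.67 (SE 0.55, edgeR adjusted p = 0.00986), being at 2.01, 0, 4.45 and 0 CPM, lower than activated cells in 4 of 4 libraries. Ccr4 fell by 0.40 (SE 0.15, edgeR adjusted p = 0.0266), a small shift at 30.9, 30.7, 25.4 and 6.70 CPM. Ccr2 did not pass the test (log2 1.29 ± 0.59 SE, edgeR adjusted p = 0.0605), but it was called higher in 6 of 15 alternative settings, with adjusted p from 0.00180 to 0.722 over all 15 (edgeR or DESeq2). Those 6 include leaving out the female library labelled Irf5-/- (log2 1.96) or the female one labelled WT (1.53). Cxcr3 gave 0.80 without the male library labelled WT (edgeR adjusted p = 0.244) and was not called with doublets removed (1.26, edgeR adjusted p = 0.0545). Without the female library labelled Irf5-/- the call of Cxcr6 was lost (edgeR adjusted p = 0.0502), and without the male library labelled Irf5-/- Cxcr6 gave -3.04. The Ccr4 call was lost in 6 of 14 alternative settings, among them leaving out either library labelled Irf5-/- (edgeR adjusted p = 0.0747 in each case).

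Activated cells with Ccr6 or Cxcr3 often held transcripts known from regulatory cells. Of 142 CD4 T-like cells with a Ccr6 UMI, 60 were in the Foxp3 class, 72 in the activated and 1 in the resting class. Among the 72 activated ones, Ikzf2 was found in 45.8% (7.04% of activated cells without Ccr6), Rora in 45.8% (6.58%), Ctla4, an inhibitory receptor, in 47.2% (11.8%) and Tnfrsf18, the receptor GITR, in 90.3% (69.4%). These genes were chosen after their values were seen, and a Foxp3 transcript can go uncaptured at this depth. All shares in this comparison are unthinned, and cells with a Ccr6 UMI held more UMIs each than cells without one, so depth moves with the shares. Per UMI, Ikzf2 stood at 260 CPM in activated cells with Ccr6 and 29.6 CPM in those without, Rora at 131 and 15.3, Ctla4 at 145 and 22.7 and Tnfrsf18 at 593 and 253 CPM. The 84 activated cells with Cxcr3 had similar shares, with Ikzf2 in 45.2%, Rora in 39.3%, Ctla4 in 38.1% and Tnfrsf18 in 88.1%. The 79 activated cells with Ccr2 had Rora in 41.8%, Ikzf2 in 25.3% and Ctla4 in 13.9%. Ifng, the type 1 cytokine, was found in 15.5% of activated cells with Cxcr3, 9.72% with Ccr6, 7.59% with Ccr2 and 6.76% with Cxcr6, each against under 1% of activated cells without that receptor. Ccr4 did not follow, with Ifng in 0.600% of activated cells with it and 0.847% of those without. These shares are pooled: in the female and the male library labelled WT, Ifng was found in 0 of 4 and 0 of 13 cells with Ccr6 and in 0 of 3 and 1 of 19 with Cxcr3.

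Among other receptors in Foxp3 cells, Ccrl2 rose by 2.94 and Ccr7 fell by 0.61 on the log2 scale. Over all genes tested here 29.6% were called higher and 27.4% lower (57.0% in all). Of 24 signalling genes 14 rose and 4 fell, with Rgs1 (3.03), Arrb1 (2.67), Gng2 (2.59) and Rgs14, another regulator of G protein signals, (2.24) changing most. Of 11 lineage factors 9 rose and 1 fell, led by Ikzf2 (5.05), Maf (4.70), Rora (2.60) and Gata3 (2.55). Ikzf2 also served as a marker check of this class.

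Ccr4 and Cxcr4 went opposite ways between activated and resting naive-derived cells. Ccr4 (chromosome 9, 114490316 to 114504916, minus strand) stood at 35.0, 31.2, 27.6 and 11.5 CPM in activated cells, 26.3 ± 10.3 (SD, n = 4), and at 7.86, 9.28, 7.28 and 2.86 CPM in resting cells. The male library labelled WT was the lowest in both classes, and within each library activated cells were higher. The log2 fold change of resting against activated cells was -1.98 ± 0.12 (SE; edgeR adjusted p = 4.87e-17). Cxcr4 (chromosome 1, 128588199 to 128592293, minus strand) stood at 12.2, 9.64, 9.67 and 9.84 CPM in resting cells, 10.3 ± 1.26 (SD, n = 4). Activated cells had 3.73, 2.50, 3.06 and 2.06 CPM, with no overlap. It was higher in resting cells by 1.87 ± 0.17 on the log2 scale (SE; edgeR adjusted p = 2.59e-12). The window before Ccr4 shown above holds the adjoining NFAT and AP-1 letters and the window before Cxcr4 holds 1 NFAT core, a description of sequence that the counts do not bear on.

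**Figure D4:**
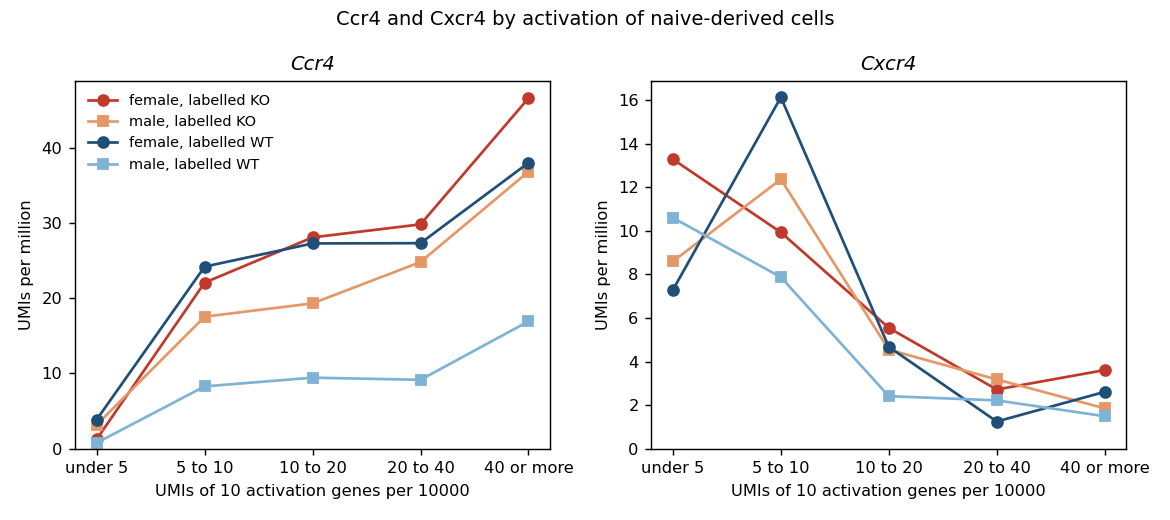
Level of Ccr4 and Cxcr4 (CPM) in naive-derived cells binned by the 10 activation genes per 10000 UMIs, with 1 line per library. Ccr4 is higher in the last bin than in the first in all 4 libraries (33.2 against 2.05 CPM pooled) and Cxcr4 lower (2.25 against 10.1 CPM).

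The steps along activation were not alike. In naive-derived cells with under 5, 5 to 10, 10 to 20, 20 to 40 and 40 or more activation transcripts per 10000 UMIs, Ccr4 stood at 2.05, 16.3, 18.4, 20.9 and 33.2 CPM. Cxcr4 stood at 10.1, 10.7, 3.99, 2.54 and 2.25 CPM, and Cxcr6 at 5.60, 6.82, 5.93, 5.40 and 8.37 CPM. Ccr4 was thus already higher in the second bin, where Cxcr4 was still at its resting level, while Cxcr6 changed less and was higher in the last bin than in the first in all 4 libraries. Ccr4 was the most widely found member: 1895 CD4 T-like cells had a UMI, of which 1667 (88.0%) were activated, and activated cells held 86.0% to 90.7% of Ccr4 UMIs with 73.4% to 78.0% of all UMIs. After thinning, 5.23% ± 1.83 (SD, n = 4) of activated and 0.791% of resting cells had a Ccr4 UMI, and 0.634% of activated and 1.85% ± 0.479 of resting cells had a Cxcr4 UMI. Free RNA held Cxcr4 at 11.8, 11.9, 9.78 and 6.71 CPM and Ccr4 at 17.5, 16.2, 14.7 and 7.32 CPM. A cell of 2000 UMIs made of free RNA alone would have a Cxcr4 UMI in 2.33%, 2.35%, 1.94% and 1.33% of cases and a Ccr4 UMI in 3.45%, 3.19%, 2.89% and 1.45%. The mean resting Cxcr4 share lies within that range, which holds for free RNA alone. How much free RNA these cells hold is not settled, so the share by itself does not separate expression from free RNA. The part of free RNA in these levels was not tested.

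Of 6 members tested, 3 were higher and 2 lower in resting than in activated cells, where 43.6% of genes were called higher and 38.7% lower (82.3% in all). Besides Cxcr4, Cxcr3 was higher by 1.41 ± 0.32 on the log2 scale (SE; edgeR adjusted p = 0.000124) at 3.14, 3.21, 3.07 and 3.78 CPM. Ccr2 was higher by 1.24 ± 0.35 (edgeR adjusted p = 0.00144), but thinning to 2000 UMIs left 0.25 (edgeR adjusted p = 0.395). Ccr6 was nearly absent from resting cells, with 1 UMI against 150 in activated cells, a ratio of levels of 38.4 (95% interval 6.79 to 1528 for counting error), and its fitted log2 fold change was -4.67 ± 0.94 (SE; edgeR adjusted p = 2.74e-05). That fitted value rests on the single UMI and ranged from -2.23 at a higher activation cut to -6.51 without the male library labelled WT. It was -3.97 and -4.00 without the female and the male library labelled Irf5-/-. Cxcr6 did not pass the test (-0.13 ± 0.23, edgeR adjusted p = 0.607). The size for Ccr4 moved with the cut on activation, from -3.50 at 5 to -1.08 at 20 per 10000 UMIs.

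The counts of signalling genes and lineage factors called between resting and activated cells stand beside 82.3% of all genes called, so they set neither list apart. In resting cells Ccr9 was higher by 3.45 and Ccrl2 by 1.09 on the log2 scale. Of 24 signalling genes 16 were higher and 5 lower, with Arrb1 (3.36), Pik3r5, a subunit of the kinase PI3K-gamma, (3.17) and Rgs14 (2.97) higher and Rgs16, a regulator of G protein signals, lower (-3.12). Of 11 lineage factors 6 were higher and 3 lower, Klf2, a factor of quiescent recirculating cells, (2.74) and Tbx21 (-2.33) changing most. Cxcl10 was lower by 0.60.

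Cxcr5 was the least captured member. Its level stood at 0 in the Zbtb16 class of all libraries, at 3.36, 6.83, 7.12 and 2.98 CPM in the Foxp3 class, at 0, 0, 8.42 and 36.0 CPM in memory-like cells, at 1.17, 1.12, 0.938 and 0.589 CPM in activated cells and at 0.698, 0.714, 0.910 and 0.572 CPM in resting cells. Foxp3 cells were above activated cells in every library, from 27 UMIs in all. Cxcr5 did not pass the filter on low counts in the comparison of classes and was not tested there. Of the cells kept out of the CD4 T-like set, 22 B-like cells had Cxcr5 at 23.2 CPM and Cxcr4 at 46.3 CPM. The gene (chromosome 9, 44511787 to 44561877, minus strand) overlaps Bcl9l on the opposite strand by 110 bases.

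Each receptor thus had its own order of classes. Ccr2 was highest in Zbtb16 and memory-like cells, whose ranges overlapped, ahead of Foxp3, activated and resting cells, whose ranges overlapped too. Cxcr6 was highest in Zbtb16 cells, then in memory-like cells, and the ranges of activated, resting and Foxp3 cells overlapped. Cxcr3 was highest in memory-like cells, and the other 4 classes ran together at 0 to 14.2 CPM. Ccr6 was highest on average in Foxp3 cells, with overlap by memory-like cells at 0 to 50.5 CPM, which were above Foxp3 cells in both male libraries. Cxcr4 was lowest in activated cells, apart from the 1 memory-like sum without a UMI, and the other 4 classes overlapped. Ccr4 in Zbtb16, Foxp3 and activated cells overlapped throughout. After thinning, 74.9% ± 7.55 (SD, n = 4) of Zbtb16 cells, 41.7% ± 11.2 of memory-like, 9.78% ± 2.15 of Foxp3, 7.41% ± 2.48 of activated and 4.31% ± 1.22 of resting cells had a UMI of at least 1 member.

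Over the 20 sums of class and library, the genes whose log2 CPM was most like each member were named among 5521 candidates, as a description with no test. The sums share libraries and depth. Among the genes most like Ccr2 were Ctla2a (Pearson r 0.94) and Il18rap (0.92), and among those most like Cxcr6 were Fasl (0.89) and Il4 (0.87). Ccr4 was most like Chpf (0.91), Ddx46 (0.90) and Atf3 (0.90), and Cxcr4 was most like Dap (0.95), Dip2b (0.94) and Dynlrb1 (0.92). Ccr6 was most like H2afz (0.88), Hopx (0.81) and Tubgcp4 (0.80), and Cxcr3 was most like Fam76a (0.83), Cd3g (0.83) and Hmgb2 (0.82). Among members, Ccr2 and Cxcr6 had r 0.90.

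By genotype label, Ccr6, Cxcr6 and Ccr4 were called higher in the libraries labelled Irf5-/-, and no member was called lower. These 3 of 7 members stand beside 1.31% of 12533 genes called higher and 0.383% called lower (1.69% in all). Scaled levels (TMM) of Ccr6 were 3.22, 1.51, 2.66 and 0.981 CPM, so both libraries labelled Irf5-/- were above both labelled WT. The log2 fold change was 1.30 ± 0.23 (SE; edgeR adjusted p = 0.00340). Cxcr6 stood at 19.97, 15.3, 19.3 and 8.36 CPM, also without overlap, with 0.84 ± 0.14 on the log2 scale (SE; edgeR adjusted p = 0.00196). Ccr4 stood at 29.2, 27.3, 22.9 and 10.2 CPM, where the groups overlapped, since the female library labelled WT was above the male one labelled Irf5-/-. Its log2 fold change was 0.65 ± 0.16 (SE; edgeR adjusted p = 0.0383). Cxcr3 (0.39, edgeR adjusted p = 0.631), Cxcr5 (0.35, 0.799), Cxcr4 (0.33, 0.479) and Ccr2 (0.28, 0.577) did not pass the test.

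**Figure D5:**
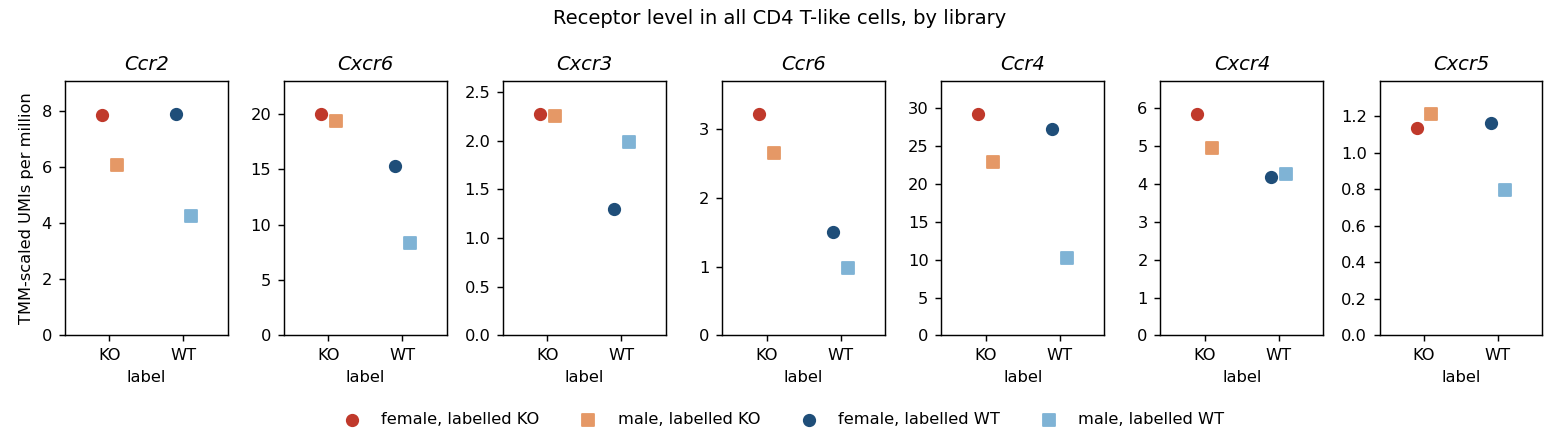
Scaled level (TMM, CPM) of each receptor in all CD4 T-like cells of the 4 libraries, by genotype label and sex. The male library labelled WT is lowest for Ccr6, Cxcr6 and Ccr4, at 0.981, 8.36 and 10.2 CPM.

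These calls were not firm. None of the 3 was called by DESeq2 (adjusted p = 0.971 for Ccr6, 0.132 for Cxcr6 and 1.00 for Ccr4), without the filter on low counts or without the sex term. Fits by label with a library left out had no sex term either, so the part of the missing library cannot be told apart. Leaving out any library but the female one labelled WT lost all 3 edgeR calls. Without the male library labelled WT the log2 fold changes were 0.95 for Ccr6 (edgeR adjusted p = 0.223), 0.36 for Cxcr6 (0.182) and -0.07 for Ccr4 (0.861), and without the female library labelled WT Ccr4 gave 1.34. Thinning to 2000 UMIs gave 0.56 for Ccr6 (edgeR adjusted p = 0.998) and 0.42 for Cxcr6 (0.366). In all kept cells the calls of Cxcr6 (log2 0.64, edgeR adjusted p = 0.0705) and Ccr4 (0.67, edgeR adjusted p = 0.123) were lost. Within sex, on the log2 scale and with 1 library a side, Ccr6 differed by 1.06 in females and 1.39 in males, Cxcr6 by 0.38 and 1.20, and Ccr4 by 0.10 and 1.16. The difference between sexes was not tested.

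Several measures moved with the labels. The Zbtb16 class made up 1.30%, 1.08%, 1.63% and 0.665% of CD4 T-like cells and the Foxp3 class 4.69%, 2.33%, 5.43% and 3.46%, so both were more frequent under the Irf5-/- label. Without the Zbtb16 class Cxcr6 gave 0.83 on the log2 scale (edgeR adjusted p = 0.0165), and without the Foxp3 class Ccr6 gave 1.47 (edgeR adjusted p = 0.0271). Ccr4 was called neither without the Zbtb16 class (0.64, edgeR adjusted p = 0.265) nor without the Foxp3 class (0.65, edgeR adjusted p = 0.0707). Free RNA held 22.3 CPM of Cxcr6 in the male library labelled WT and 58.7 to 82.3 CPM in the others. Its Ccr4 level, given above, was in the same order of libraries as that of activated cells, and its Ccr6 level, at 3.93, 1.63, 2.74 and 1.95 CPM, was higher in both libraries labelled Irf5-/-. Median UMIs per kept cell were 5104.5, 8416, 6741 and 9661, lower under the Irf5-/- label. In the female library labelled Irf5-/- 24 of the 65 Ccr6 UMIs of activated cells came from 1 cell. The part of depth and free RNA in these differences was not tested.

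Within activated cells, Ccr6 (log2 1.75 ± 0.33 SE, edgeR adjusted p = 0.0294) and Cxcr6 (0.74 ± 0.15, edgeR adjusted p = 0.0423) were called higher under the Irf5-/- label, where 0.689% of genes were and 0.207% were called lower (0.895% in all). In the female library labelled Irf5-/- 31 of 3718 activated cells held 167 of the 265 Cxcr6 UMIs, against 3 cells with 16 of 72 in the female one labelled WT. Without cells of 3 or more Cxcr6 UMIs the 4 activated levels were 4.28, 4.85, 3.31 and 2.65 CPM, so the labels overlapped and the female libraries turned direction. Within resting cells Cxcr6 was called higher (1.18 ± 0.30, edgeR adjusted p = 0.0192), where 0.438% of genes were and 0.267% were called lower (0.705% in all). Each call was lost without the sex term. It was also lost without any library but the female one labelled WT, in fits that had no sex term either. In activated cells Cxcr6 was called at 1.17 without that library (edgeR adjusted p = 0.0292), and it was not called at 0.33 and 1.23 without the female and the male library labelled Irf5-/- (edgeR adjusted p = 0.999 and 0.236). The other 3 classes had under 50 cells in at least 1 library and were not tested by label. For thinned shares of cells with a member UMI, the exact permutation test of 2 against 2 libraries cannot go below p = 0.333, so no difference between labels could pass it.

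By label, 1.31% of 12533 genes were called higher in all CD4 T-like cells and 0.383% lower (1.69% in all). Of the fixed lists, Xcr1, a receptor best known from cross-presenting dendritic cells, was higher by 2.62 on the log2 scale. It stood at 0.316, 0.0686, 1.51 and 0.234 CPM (TMM), highest in the male library labelled Irf5-/-. Ccl20, the Ccr6 ligand, was lower by 3.69 (edgeR adjusted p = 4.44e-05) and Cxcl10, a Cxcr3 ligand, by 0.49 (edgeR adjusted p = 0.00158), 2 of 3 ligands tested. Ccl20 stood at 0.316, 1.10, 0.151 and 4.39 CPM (TMM), so the difference lay mostly in the male library labelled WT (log2 -1.63 within females and -4.40 within males). Rgs1 was higher by 0.50, 1 of 25 signalling genes. Ikzf2 (0.97), Gata3 (0.71), Maf (0.67) and Rora (0.63) were higher, 4 of 11 lineage factors. All 4 were also higher in the Foxp3 class than in activated cells. In activated cells alone 0.689% of genes were called higher and 0.207% lower (0.895% in all). The calls there were Xcr1 (2.19), Ccl20 (-3.53) and Cxcl10 (-0.49, 2 of 2 ligands) and Rgs1 (0.48, 1 of 25). Ikzf2 (0.82), Gata3 (0.68) and Klf2 (0.52) were called too, 3 of 11 lineage factors. In resting cells the calls were Cxcl10 (-0.59), Rgs1 (0.59), Gata3 (0.65) and Bcl6 (-0.67).

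Between sexes, Ccr4 was the one member called in the fit with both terms. It was lower in male libraries by 0.82 on the log2 scale (SE 0.15, edgeR adjusted p = 0.00933), where 0.846% of genes were called lower and 0.231% higher (1.08% in all). The male library labelled WT had 10.2 CPM and the other 3 had 22.9 to 29.2 CPM, so most of this difference lay in 1 library. The call was lost in 5 of 9 alternative settings: DESeq2 (adjusted p = 1.00) and edgeR without the genotype term (adjusted p = 1.00), without the filter (adjusted p = 0.888), in all kept cells (adjusted p = 0.0603) and without the Zbtb16 class (adjusted p = 0.157). Ccr2 was not called (-0.59, edgeR adjusted p = 0.0655) but was called lower in male libraries in 4 of 9 settings, down to -1.39 without the Zbtb16 class. In activated cells 13 cells held 64 of the 87 Ccr2 UMIs of the female library labelled Irf5-/- and 2 cells held 37 of the 48 of the female one labelled WT, and the levels without cells of 3 or more are given above. Cxcr6 (-0.38, edgeR adjusted p = 0.384) was called lower in 2 of 9, thinned (-0.62) and without the Zbtb16 class (-0.76). Xcr1 was higher in male libraries (2.19), and Cxcl10 (-0.45), Rgs1 (-0.47) and Gata3 (-0.60) were lower. The Xcr1 levels given above overlapped between the sexes, with the male library labelled Irf5-/- highest.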

How the data were processed

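The deposited files hold raw UMI counts of every gene in every barcode, empty droplets included. Cell Ranger 6.0.2 and mm10 are named in the submitters' processing notes, and the file headers give Cell Ranger 4 as the software; strand use is not given in the sources used here. Coordinates and overlaps are from GENCODE M21 on GRCm38, in which 99.6% of gene identifiers were found.

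Counts were read with Python 3.11.15, numpy 2.4.6 and scipy 1.17.1 and plotted with matplotlib 3.10.9. Cells were kept at 2000 UMIs, 500 genes and at most 10% mitochondrial UMIs, and classed by single transcripts without clustering. Doublets were kept; removing the highest scrublet scores (scanpy 1.11.5) at 0.8% per 1000 cells was an alternative. UMIs were summed per library, or per library and class, and tested with edgeR 4.0.16 in R 4.3.3 (limma 3.58.1; TMM, filterByExpr, quasi-likelihood, Benjamini-Hochberg over all genes tested, called at 0.05), with sex as covariate for genotype label and library as block for classes. DESeq2 1.42.0 was an alternative. Where leaving out a library left 1 in an arm, the spread was pooled over the fit, so the lone library is assumed to vary like the others. Fits by genotype label with a library left out had no sex covariate. On simulated counts of the genotype comparison edgeR recovered 76% of genes changed by 1 and 95% of those changed by 2 on the log2 scale. For memory-like cells these shares were 24% and 63%. Of the calls, 2.84% were false in the former and 8.42% in the latter.

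The labels do not say how many animals a library holds, so the spread behind the p-values may be technical. For classes it is the spread of class differences between libraries, pooled over the classes. For genotype label it is what is left after sex and label in these 4 libraries, with estimates shared across genes. Intervals are exact at 95% and cover counting error only. The members and gene lists were chosen with earlier results of these data known. Named were the 7 members, Irf5, at most 4 called genes with the largest change per list and comparison, the 3 genes most like each member, and genes overlapping a member; partner genes in receptor-positive cells were chosen after their values were seen. One gene that this rule names is not reported here, so the list of other chemokine receptors is given without counts.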

Additional observations from a re-analysis of the deposited data

Results flagged for a closer look

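Ccr2 and Cxcr5 went opposite ways between the sexes when libraries labelled Irf5-/- were set against those labelled WT. Ccr2 differed by -0.00511 on the log2 scale in the female libraries and by 0.51 in the male libraries. Cxcr5 differed by -0.0354 in the female and by 0.57 in the male libraries. Each value compares 1 library with 1 library, both female values are close to 0, and the difference between sexes was not tested.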

How the results depend on the processing

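Over 50 results on single members and 558 alternatives, 470 kept direction and side of the threshold, 58 lost the call, 15 gained one and 15 turned direction; of 26 called results, 9 were called in every alternative run. The cause of these changes was not tested. On the log2 scale the turned values were -0.046 for Ccr4 in Zbtb16 cells without the female library labelled Irf5-/- (0.42 at most with a library left out); -0.23 for Ccr6 in Zbtb16 cells and -6.71 for Ccr2 in memory-like cells, both over the activation cut (an alternative chosen after seeing the data, as was leaving out a class); and, by genotype label, -0.44 (thinned) and -0.047 (without the Zbtb16 class) for Ccr2. Male against female, thinning gave 0.55 for Ccr6 and -0.27 for Cxcr3. With a library left out, genotype values ranged from -0.071 to 1.34 for Ccr4 and -0.19 to 0.70 for Ccr2 in all cells, from -0.17 to 0.72 for Cxcr5, -0.066 to 1.33 for Ccr4 and -0.95 to 1.85 for Ccr2 in activated cells, and from -0.077 to 0.25 for Cxcr4 and -0.34 to 1.31 for Ccr4 in resting cells. Thinning lowered the genes called from 3850 to 1609 for Zbtb16, 5128 to 2460 for Foxp3, 3069 to 1102 for memory-like (1378 over the activation cut) and 7398 to 3573 for resting cells. Genes called by genotype label in all cells went from 212 to 40 with DESeq2, 21 without the filter, 13 without the sex term, 87 thinned, 111 without the Zbtb16 class, 134 without the Foxp3 class and 27 to 389 with a library left out. For male against female they went from 135 to 21 with DESeq2, 9 without the filter, 45 without the Zbtb16 class and 7 without the genotype term. In activated cells they went from 104 to 14 without the sex term and 12 to 431 with a library left out, in resting cells from 74 to 6 and 33 to 444. The share of cells with any member UMI was 7.59% thinned and 19.1% unthinned. The labels carry no replicate numbers. The sex term pairs the libraries labelled Irf5-/- and WT of the same sex, and the counts without that term are those given above. Fits by genotype label with a library left out had no sex term either, so the values given for them mix both changes.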
